A study of Mus musculus with 2 samples.

Results

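The 38 miRNA hairpin genes described here lie on the plus strand of mouse chromosome 12, in the Dlk1-Dio3 region, from Mir379 at 109709060 to the end of Mir3072 at 109747960 of GRCm38. They are all the miRNA genes with a Mir symbol that GENCODE places in a window around the Mir379 to Mir410 cluster, out of 1174 such genes in the genome, and they were chosen by position alone. Small RNAs were sequenced from J1 cells, an embryonic stem cell line of the mouse strain 129S4/SvJae. The cells had 6 h with DMSO, the solvent control, or with SC1 (pluripotin) at 1 µM, which is known to promote self-renewal, both in medium with 1000 U/mL LIF, a cytokine that keeps these cells undifferentiated. Each condition had 1 library, so no value below has a replicate error and no test was made. The study set out to find miRNAs regulated by SC1, but tags were 18 to 44 nt long in DMSO and 3 to 17 nt long in SC1, and with no shared length no level was compared between the conditions.

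miRNAs are cut from hairpins first by Drosha and then by Dicer, which leaves a 5p and a 3p strand. One strand is usually kept in an Argonaute protein, where bases 2 to 8, the seed, pair with target mRNAs. The Dlk1-Dio3 region is imprinted, its noncoding RNAs are made from the maternal chromosome, and their activity is known to vary between pluripotent stem cell lines. Its miRNAs are best known in brain, where the Mir379 to Mir410 cluster acts on dendrites and synapses.

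The DMSO library had 18870345 listed reads and the SC1 library 1275599, of which 1054495 were of 15 to 17 nt. In DMSO 2167129 reads, 11.5% of all, were assigned to mature miRNAs. The embryonic stem cell marker genes from Mir290a to Mir295 held 29.0% of the mature reads, and those of fibroblasts, neural cells, muscle and blood held 0.141%, 0.241%, 0.14% and 0.0123%. Levels are in RPM, reads in each 1000000 reads assigned to mature miRNAs. Intervals in brackets are exact (Clopper-Pearson) 95% binomial intervals, which cover counting error only, because each condition had 1 library. The tag lists hold no molecular identifiers, so a molecule can have been counted more than once, which would make the intervals too narrow. Adapter ligation differs between small RNA sequences, so an order of levels between arms is an order of reads, and its part in that order was not tested.

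Of the 38 hairpins, 34 had at least 1 counted arm, and 20 of these had both. Over all 1174 hairpins, members included, 590 arms were counted, beside 54 over the 38. The most abundant arms of the cluster were miR-323-3p, miR-382-5p, miR-543-3p and miR-541-5p. The sequences of the leading arms are shown first because the results on lengths, starts and short forms turn on them. They are RefSeq mature sequences on GRCm38.p6, in genomic order and written 5′ to 3′, with the seed in capitals.
miR-379-5p: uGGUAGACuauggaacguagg
miR-411-5p: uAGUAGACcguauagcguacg
miR-323-3p: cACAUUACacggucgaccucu
miR-543-3p: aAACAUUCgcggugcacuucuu
miR-495-3p: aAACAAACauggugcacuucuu
miR-376a-3p: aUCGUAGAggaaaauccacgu
miR-382-5p: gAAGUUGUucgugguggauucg
miR-382-3p: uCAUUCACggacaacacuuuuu
miR-485-3p: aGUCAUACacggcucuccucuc
miR-541-5p: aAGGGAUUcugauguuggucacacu
miR-409-3p: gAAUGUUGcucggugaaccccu
These 11 arms carry 11 different seeds. The other arm among the 12 most abundant was miR-485-5p.

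The seeds of the cluster's matched RefSeq sequences were mostly unlike one another. RefSeq mature sequences matched to the 38 hairpins numbered 71, with 65 different seeds, and 6 seeds occurred in a pair of members. The counted arms miR-485-5p, miR-376c-3p and miR-487b-3p had no matched sequence and are not in these counts. Both arms of Mir379 took part in such pairs, and those pairs are shown with their seeds in capitals because both partners were read.
miR-379-5p: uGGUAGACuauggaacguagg
miR-1193-5p: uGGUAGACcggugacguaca
miR-379-3p: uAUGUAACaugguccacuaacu
miR-411-3p: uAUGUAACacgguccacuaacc
The other pairs were miR-758-5p with miR-1197-5p, miR-410-5p with miR-494-5p, miR-376b-5p with miR-376c-5p, and miR-453 with miR-496a-5p. A further 11 member seeds occurred in miRNAs from elsewhere: miR-495-3p shared its seed with miR-1192, miR-329-3p with miR-362-3p, and miR-410-3p with miR-344d-3p and miR-344e-3p.

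The cluster held 119381 DMSO reads, 5.51% (5.48 to 5.54) of all mature miRNA reads and 0.633% of the list. Of the 54 counted arms, each with a tag of 10 reads or more, 53 were at 10 RPM or more, 36 at 100 RPM or more and 14 at 1000 RPM or more. Their median was 163 RPM, beside 87.7 RPM over the 429 other mature miRNA names. How many of the other names reached 10, 100 or 1000 RPM is not given here. No read of the cluster was shared with a miRNA from elsewhere, and none of the reversed tags, which measured chance, matched a member hairpin.

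The name of the host transcript covers only part of the locus in this annotation. GENCODE places the lincRNA gene Mirg at chr12:109729764-109749460, where it overlaps 14 of the 38 hairpins, from Mir382 to Mir3072. Of these, 4 lie in an exon, 5 in an intron and 5 across an exon edge. The other 24, from Mir379 to Mir544, lie in no annotated gene of the plus strand. The hairpins inside Mirg gave 43.8% of the cluster reads over 22 arms with a median of 209 RPM, and the 32 arms upstream had a median of 156 RPM. Both stretches thus carried abundant arms. The nearest miRNA genes outside the window on this strand, Mir882 before it (end 109682273) and Mir3073a after it (start 112109238), had 0 reads. Mir3073a lies far beyond the cluster and is no close neighbour. The other Dlk1-Dio3 miRNA genes upstream, Mir882 among them, held 2.29% of the mature reads.

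Neighbouring hairpins differed widely. The locus opens with Mir379 at 1881 RPM over both arms and Mir411 at 1635 RPM, followed by Mir299a at 346 RPM, Mir380 at 353 RPM and Mir1197 at 48.0 RPM. Next comes Mir323, the most abundant hairpin of the cluster, at 12300 RPM. Beyond it Mir758 had 151 RPM, Mir329 1039 RPM, Mir494 1319 RPM, Mir1193 581 RPM and Mir666 170 RPM. Mir543 reached 4840 RPM and Mir495 2011 RPM, while Mir667 after them had 77.1 RPM.

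The miR-376 family and its neighbours showed the same range within a short stretch. Mir376c had 144 RPM, Mir376b 241 RPM and Mir376a 2824 RPM, although their 3p strands are close relatives. Mir300 had 84.9 RPM, Mir381 15.2 RPM, Mir487b 845 RPM and Mir539 59.1 RPM. Inside Mirg the first hairpin, Mir382, was the highest at 10143 RPM, followed by Mir134 at 1453 RPM, Mir668 at 70.1 RPM and Mir485 at 4868 RPM. The value of Mir668 rests on 152 reads, and 169 further reads that ran past its hairpin end were not counted. Further on Mir154 had 532 RPM, Mir496a 156 RPM, Mir377 180 RPM, Mir541 3883 RPM and Mir409 1608 RPM. The last hairpins were Mir412 at 339 RPM, Mir369 at 456 RPM, Mir410 at 294 RPM and Mir3072 at 138 RPM. High and low hairpins were thus mixed along the locus, in places with several low or several high ones in a row.

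Counted arms were absent from 4 hairpins, Mir679, Mir654, Mir544 and Mir453. For Mir679 the DMSO list held 21 reads with an exact match, divided 10 to 11 between its sides. Mir544 had 1 such read, and Mir654 and Mir453 had 0, which allows up to 0.159 reads in each 1000000 reads of the list.

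**Figure D1:**
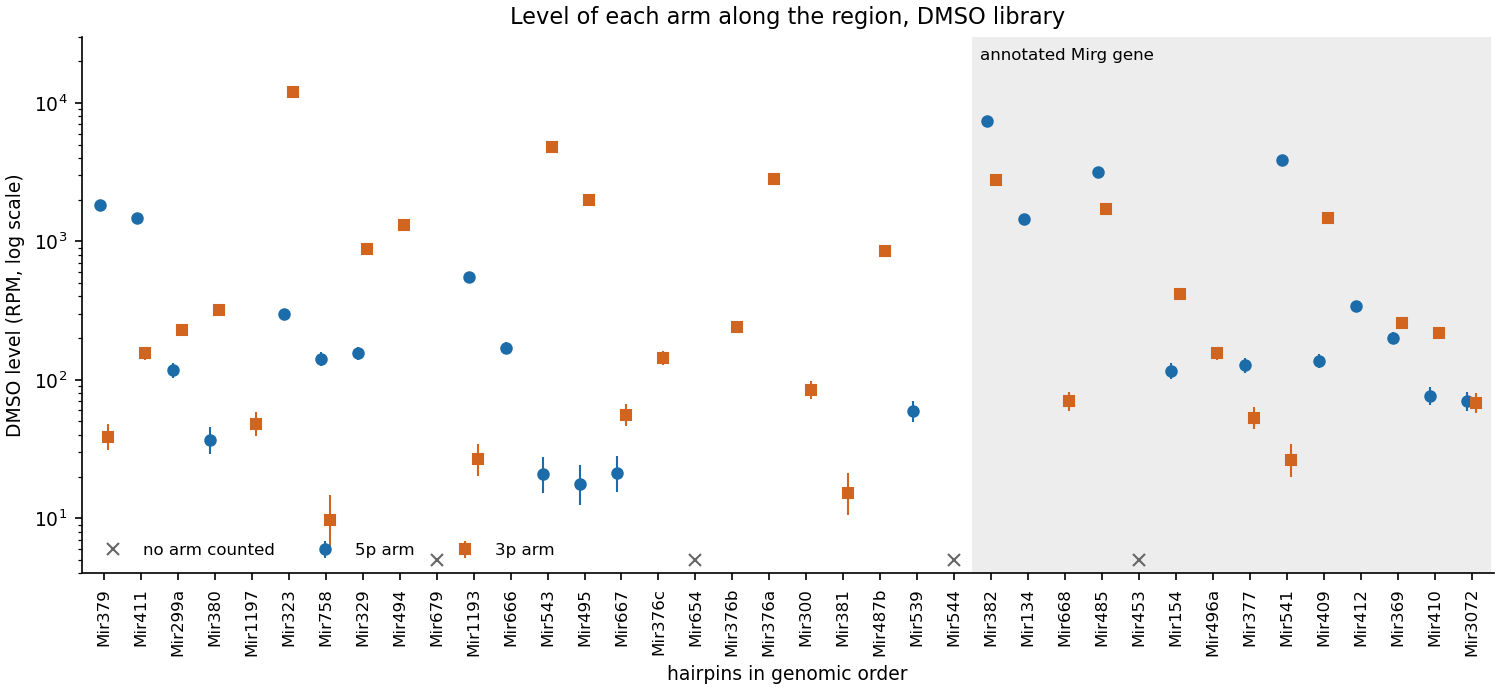
DMSO level of each counted arm (RPM, log scale) for the 38 hairpins in genomic order, with 5p arms as circles, 3p arms as squares and exact 95% binomial intervals as bars. miR-323-3p at 12002.5 RPM stands highest, crosses mark the 4 hairpins without a counted arm, and the shaded hairpins lie in the annotated Mirg gene.

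The 12 most abundant arms held 82.2% of the cluster reads and the other 42 arms the rest. miR-323-3p, known in mouse embryonic stem cells to target the Polycomb protein Eed, had 26011 reads, or 12002.5 RPM (11858 to 12148.4). It ranked 19 among all 483 mature names of the library. miR-382-5p had 15991 reads, or 7379 RPM (7265 to 7494). miR-543-3p, known to act on N-cadherin in neural development, had 10444 reads, or 4819 RPM (4727 to 4912). Together these 3 held 43.9% (43.7 to 44.2) of the cluster reads, and their intervals do not overlap. Their order depended on which tags were counted. With tags of 20 to 24 nt miR-382-5p (6207 RPM) stood above miR-323-3p (5397 RPM), and with the most abundant tag alone miR-543-3p (4673 RPM) stood above miR-382-5p (3717 RPM).

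The next group ran from 3857 to 1472 RPM. miR-541-5p had 3857 RPM (3775 to 3941) from 8359 reads. miR-485-5p, known in neurons to repress the synaptic vesicle protein gene Sv2a, had 3148 RPM (3073 to 3223) from 6821 reads. miR-376a-3p had 2824 RPM (2754 to 2896) and miR-382-3p 2764 RPM (2695 to 2835), and these overlap within counting error. miR-495-3p at 1994 RPM (1935 to 2054) and miR-379-5p at 1843 RPM (1786 to 1900) came next, without overlap.

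The last of the 12 also lie close together. miR-485-3p had 1720 RPM (1665 to 1776), with its interval below that of miR-379-5p. miR-411-5p at 1479 RPM (1429 to 1532) and miR-409-3p at 1472 RPM (1421 to 1524) overlap, and so does miR-134-5p behind them at 1453 RPM (1402 to 1504). This order too depended on which tags were counted. With any exact hairpin match miR-485-3p (2021 RPM) stood above miR-495-3p (1984 RPM) and miR-379-5p (1833 RPM). In that setting miR-409-3p (1714 RPM) stood above miR-411-5p (1472.5 RPM). miR-134-5p is known to act on Nanog in differentiating stem cells and on Limk1 in dendrites. miR-494-3p at 1319 RPM (1271 to 1369) was the only other arm above 1000 RPM. At the low end stood miR-758-3p with 21 reads, or 9.69 RPM (6.00 to 14.8).

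The 3p arm led in more hairpins than the 5p arm. Among the 34 hairpins with 20 reads or more, 21 had more 3p reads and 13 more 5p reads, and 39.6% (39.3 to 39.9) of the cluster reads were of the 5p arm. Among the 293 other miRNA names with 20 reads or more, 134 had more 3p reads and 159 more 5p reads. By counted arms most hairpins were one-sided: 23 of the 34 had 90% or more of their reads on one arm. In 14 hairpins only 1 arm was counted, and the other arm was taken as having no reads. Of these, Mir381 had 11 exact reads on its 5p side beside 33 on its 3p side. The share of one-sided names among other miRNAs is not given here, so the count marks nothing particular to the cluster.

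The one-sided hairpins were found in both directions. Mir379, Mir411, Mir758, Mir1193 and Mir541 had 90.5% to 99.3% of their reads on the 5p arm, and Mir666, Mir539, Mir134 and Mir412 had only a 5p arm counted. Mir323, Mir543, Mir495 and Mir409 had 2.42%, 0.429%, 0.872% and 8.46% on the 5p arm. A 3p arm alone was counted for Mir1197, Mir494, Mir376a, Mir376b, Mir376c, Mir300, Mir381, Mir487b, Mir668 and Mir496a. Adjacent hairpins could go opposite ways. Mir411 had 90.5% on the 5p arm and the next hairpin, Mir299a, 33.8%, while Mir541 had 99.3% and the next, Mir409, 8.46%.

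Reads on both arms were frequent in a few hairpins. The leading arm held less than 75% of the reads in 8 of them, Mir382, Mir377, Mir485, Mir3072, Mir369, Mir299a, Mir667 and Mir410. Mir3072 was the most even, with 151 reads on the 5p and 147 on the 3p arm (50.7% 5p, 44.8 to 56.5), so neither arm led beyond counting error. Mir369, with 434 and 555 reads, had 43.9% on the 5p arm (40.8 to 47.0), and its 3p arm led. miR-369-3p is known as a regulator of Tnf mRNA translation. Mir485 had 64.7% 5p (63.7 to 65.6), Mir299a 33.8% (30.4 to 37.3) and Mir377 70.5% (65.7 to 74.996).

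Only Mir382 and Mir485 had 1000 reads or more on each arm. At Mir382, chr12:109733771-109733846 and across an exon edge of Mirg, 15991 reads were 5p and 5990 were 3p, which makes 72.7% 5p (72.2 to 73.3). At Mir485, chr12:109734902-109734974 and in an exon of Mirg, 6821 reads were 5p and 3728 were 3p. Each of these hairpins thus gave a pair of miRNAs with different seeds at high level.

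**Figure D2:**
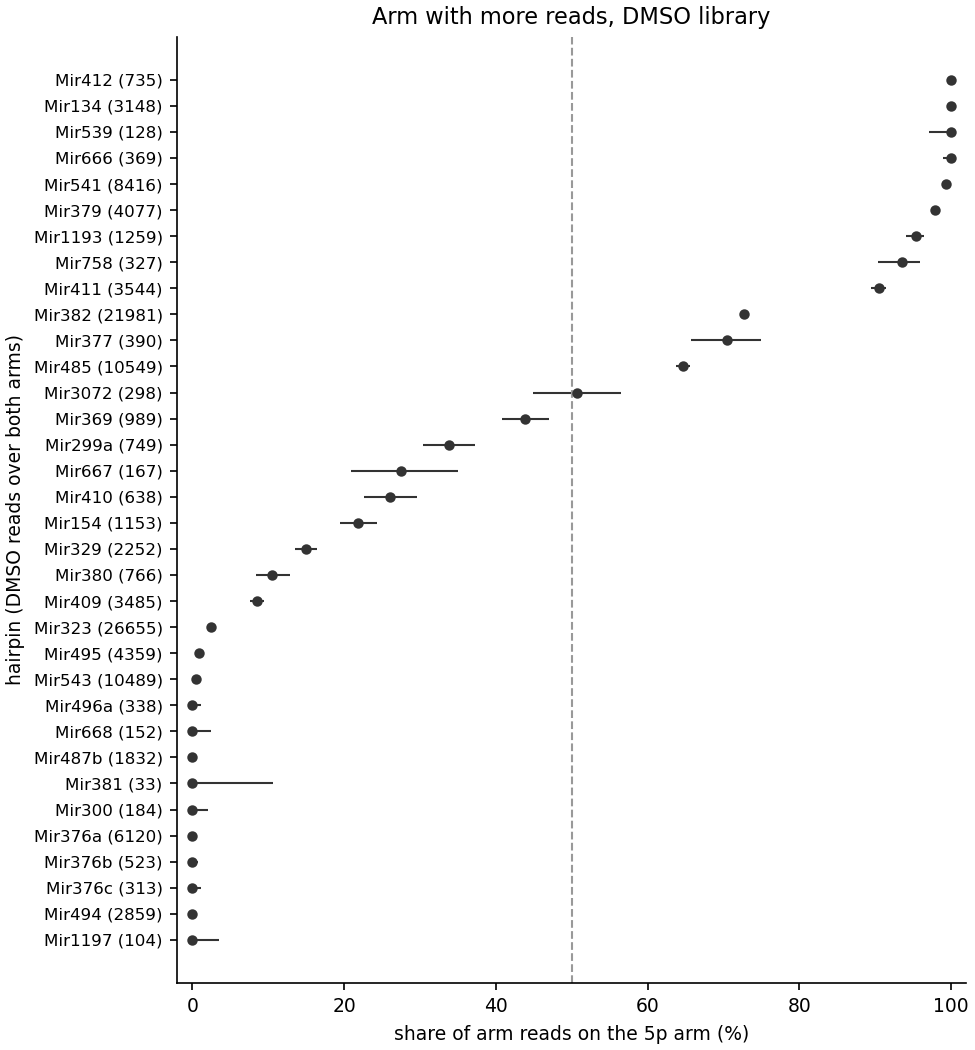
Share of reads on the 5p arm (%) for the 34 hairpins with 20 reads or more, ordered from 5p to 3p, with exact 95% binomial intervals as bars and the reads over both arms in brackets. Points gather at both ends, and Mir3072 alone has an interval that crosses the dashed line of equal arms. An arm that was not counted is taken as having no reads.

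The first base of the leading arm was mostly A or U. Of the 34 leading arms of the cluster 16 began with A and 14 with U, and of 305 leading arms of other miRNAs 95 began with A and 129 with U. The hairpins also had short words in common. The word TACTTG, read on the sense strand only, was found in 10 of the 38 hairpins (26.3%) and in 22 of the 1136 other hairpins (1.94%). The word TTCGCT was likewise found in 10 of the 38 and in 4 of the others (0.352%). The word TCGCTT, which can be TTCGCT moved by 1 base, was in 10 of the 38 and in 7 of the others (0.616%). TACTTG and TTCGCT can overlap by 1 base. All were picked as the most frequent of 1711 words of 6 nt in the cluster, so the shares are a description.

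Reads of the cluster were shorter than those of other miRNAs, and a few arms gave most of the short reads. Lengths of 21 to 23 nt held 62.0% (61.8 to 62.3) of the cluster reads and 82.2% (82.1 to 82.2) of all other mature miRNA reads. Lengths of 18 to 20 nt held 33.4% (33.1 to 33.6) and 7.95% (7.91 to 7.99). At 19 nt the shares were 16.8% in the cluster and 2.40% elsewhere, and at 22 nt 27.03% and 47.4%. At 18 nt, the shortest length in the DMSO list, the shares were 2.66% (2.56 to 2.75) and 1.56% (1.54 to 1.57).

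Of the cluster reads at 18 to 20 nt, 90.3% belonged to miR-323-3p, miR-382-5p, miR-382-3p, miR-376a-3p and miR-411-5p, which were picked out after their values were seen. The remaining 49 arms had 6.24% (6.05 to 6.44) of their reads at 18 to 20 nt, and the cluster without miR-323-3p alone had 22.6% (22.3 to 22.9). Arm by arm the cluster was nearer to the rest. Among arms with 500 reads or more, the median share at 18 to 20 nt was 4.32% over 23 cluster arms and 3.37% over 153 other arms. More than 50% lay at 18 to 20 nt in 4 of the 23 (17.4%) and in 13 of the 153 (8.50%).

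In miR-323-3p, miR-382-5p and miR-376a-3p the most abundant short tags kept the 5′ end and lacked bases at the 3′ end. The most abundant DMSO tags of miR-323-3p, miR-382-5p and miR-376a-3p, written in DNA letters with the seed in capitals, are shown with their length as examples of such forms.
miR-323-3p, 19 nt: cACATTACacggtcgacct
miR-323-3p, 21 nt: cACATTACacggtcgacctct
miR-323-3p, 20 nt: cACATTACacggtcgacctc
miR-382-5p, 20 nt: gAAGTTGTtcgtggtggatt
miR-382-5p, 21 nt: gAAGTTGTtcgtggtggattc
miR-382-5p, 22 nt: gAAGTTGTtcgtggtggattcg
miR-376a-3p, 21 nt: aTCGTAGAggaaaatccacgt
miR-376a-3p, 19 nt: aTCGTAGAggaaaatccac
miR-376a-3p, 18 nt: aTCGTAGAggaaaatcca
The miR-323-3p tags had 13855, 5164 and 2593 reads in the order shown, and the 21 nt form is the RefSeq sequence. The form most read in these cells therefore ended 2 nt before the RefSeq end. At 20 nt the tag shown held 2593 of the 3754 reads of miR-323-3p, and the others started elsewhere. The miR-382-5p tags had 5158, 4381 and 2661 reads, and the 22 nt form is the RefSeq sequence. The miR-376a-3p tags had 3015, 1429 and 878 reads, with the RefSeq form in the lead.

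Each of the short arms had its own pattern. miR-323-3p had 53.6% of its reads at 19 nt and 27.9% at 21 to 23 nt. miR-382-5p spread over 20 nt (34.0%), 21 nt, 22 nt and 19 nt (16.9%), and its main tag also ended 2 nt before the RefSeq end. miR-382-3p had 56.1% at 20 nt. miR-411-5p had 36.1% at 20 nt and 22.8% at 19 nt. miR-376a-3p divided its reads between 21 nt (49.3%) and 19 nt (23.4%), with few at 20 nt.

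Fewer arms had a main length over 23 nt (2 arms) than under 21 nt (7 arms). The lengths counted for an arm were bounded, because a tag had to end within 4 nt of the main tag's end. At the main start this left out forms of 24 to 26 nt for a main tag of 19 nt. For miR-541-5p, with a main tag of 25 nt, it left out those of 18 to 20 nt. The main length was 19 nt for 2 arms (miR-323-3p and miR-410-5p), 20 nt for 5, 21 nt for 19, 22 nt for 15, 23 nt for 11 and 25 nt for 2. The arms at 25 nt were miR-541-5p, with 38.3% at that length and 56.9% at 24 to 26 nt, and miR-667-5p, with 84.8% of 46 reads. Lengths of 24 to 26 nt held 4.58% of the cluster reads and 9.87% of other mature reads. Lengths of 27 to 31 nt, measured in the same list, held 6 reads with an exact match to a member hairpin, 3 of them at Mir541.

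In some arms a single length prevailed. miR-369-3p had 91.4% and miR-380-3p 91.3% of their reads at 21 nt, and miR-494-3p 88.3% at 23 nt. miR-495-3p had 93.4% of its counted reads at 22 nt, where its hairpin ends, and 1077 reads that ran past that end are not among its 4321 counted reads. miR-376b-3p, at 66.9% in 21 nt, was less mixed than its relative miR-376a-3p. miR-410-3p was divided between 21 nt (50.6%) and 19 nt (43.9%).

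**Figure D3:**
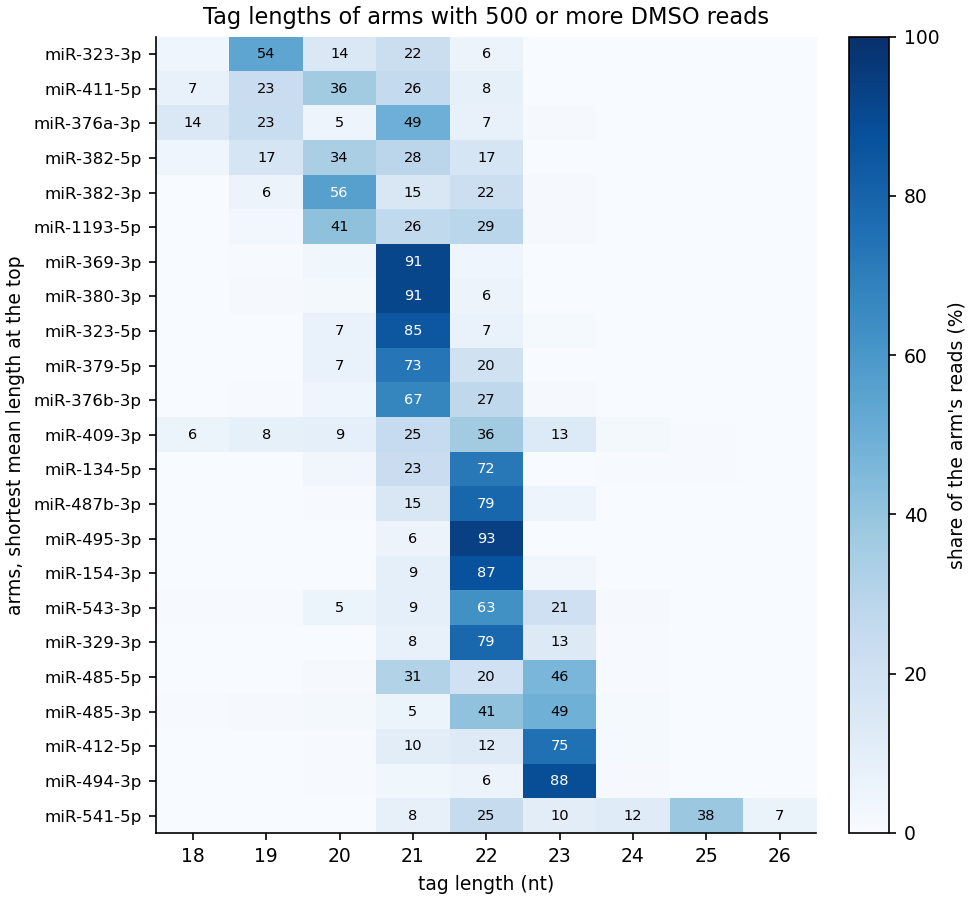
Share of each arm's DMSO reads (%) at each tag length from 18 to 26 nt, for the 23 cluster arms with 500 reads or more, shortest mean length at the top. The first arms, from miR-323-3p to miR-382-3p, have much of their reads left of 21 nt, most of the others peak at 21 to 23 nt, and miR-541-5p peaks at 25 nt.

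The 5′ end, which sets the seed, was sharp in most arms. The main start held 91.2% (91.1 to 91.4) of the cluster reads and 92.4% of other mature reads, with medians over arms of 97.9% and 97.2%. Of the 54 arms 42 had 90% or more at the main start, and 8 had less than 75%. RefSeq mature sequences were matched for 51 of the 54 arms, and miR-376c-3p, miR-487b-3p and miR-485-5p are the arms left out of that count. The main start equalled the RefSeq start in 47 of the 51, and the main tag was the whole RefSeq sequence in 29.

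In 4 arms most reads started elsewhere than in RefSeq, which changes the seed. For miR-382-3p, the most abundant of them, 97.2% of reads started 2 nt before the RefSeq start and 1 read started at it. Its RefSeq sequence and its main DMSO tag, 20 nt long with 3345 reads, are shown to compare the seeds in capitals.
miR-382-3p, RefSeq: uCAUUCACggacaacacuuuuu
miR-382-3p, main tag: aATCATTCacggacaacact
The main start of miR-377-3p lay 3 nt before the RefSeq start, with 93.9% of 115 reads, and that of miR-541-3p 2 nt before it, with 57.9% of 57 reads. That of miR-300-3p lay 1 nt after it with 44.02% of 184 reads, and a start 2 nt after held another 40.8%. For miR-377-3p the RefSeq start fell outside the 2 nt window, so reads at it were not counted. Its hairpin had 130 exact reads on the 3p side, beside the 115 counted.

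Several abundant arms had a second start with its own seed. miR-485-3p was divided between the RefSeq start, with 2086 reads (56.0%, 54.3 to 57.6), and a start 1 nt later, with 1530 reads (41.0%). miR-411-5p had 1984 reads (61.9%) at the main start and 1160 (36.2%) 1 nt earlier. miR-409-3p had 1866 reads (58.5%) at the main start, 808 (25.3%) 1 nt earlier and 516 (16.2%) 1 nt later. The leading tags of these starts show how the seed in capitals moves.
miR-485-3p, main start: aGTCATACacggctctcctctct
miR-485-3p, 1 nt later: gTCATACAcggctctcctctct
miR-411-5p, main start: tAGTAGACcgtatagcgtac
miR-411-5p, 1 nt earlier: aTAGTAGAccgtatagcgtac
miR-409-3p, main start: gAATGTTGctcggtgaacccct
miR-409-3p, 1 nt later: aATGTTGCtcggtgaacccct
miR-409-3p, 1 nt earlier: cGAATGTTgctcggtgaacccct
miR-323-3p had 87.4% at the main start and 12.4%, or 3223 reads, 1 nt earlier, beside 3190 counted reads of miR-409-3p in all. miR-1193-5p had 20.4% 1 nt earlier, miR-668-3p 35.5% 2 nt earlier and miR-496a-3p 24.3% 2 nt later.

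Some starts that differ from RefSeq gave the seed of another miRNA. The start of miR-543-5p 1 nt before the main one, with 11 of 45 reads, had the seed of miR-495-5p. The start of miR-381-3p 1 nt before the main one, with 3 of 33 reads, had a seed found in let-7a-1-3p. The 2 nt earlier start of miR-668-3p, with 54 reads, had the seed of miR-1970b-5p. For miR-382-3p the start 1 nt before the RefSeq start, with 165 reads, had the seed of miR-12187-3p. The main start of miR-300-3p, with 81 reads, had that of miR-1931, and the start of miR-495-3p 1 nt after its main one, with 56 reads, that of miR-8118. In contrast, miR-494-3p (99.9%), miR-376a-3p (99.7%) and miR-379-5p (99.4%) had nearly all their reads at the main start.

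**Figure D4:**
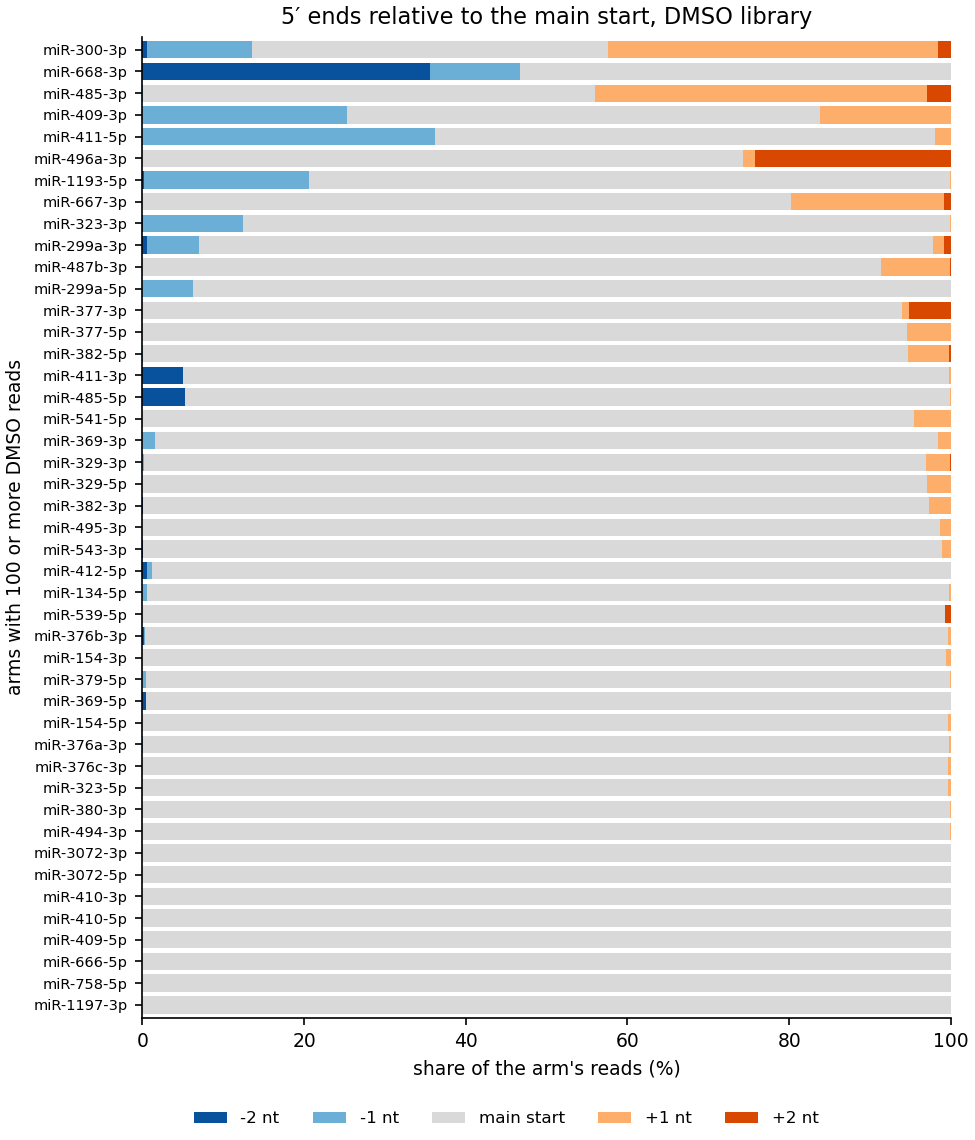
Share of each arm's DMSO reads (%) that start at the main start (grey), 1 or 2 nt before it (blue) or 1 or 2 nt after it (orange), for the 45 cluster arms with 100 reads or more, most mixed at the top. miR-300-3p, miR-668-3p and miR-485-3p are the most mixed, and the lower arms are at or near 100% at the main start.

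The 3′ end varied more than the 5′ end. The main tag ended at the RefSeq end in 29 of the 51 arms, before it in 16 and after it in 6. Tags with 1 added base that the hairpin does not hold, counted apart from the exact reads, made up 3.63% (3.53 to 3.74) of the exact and tailed reads together. The added base was A in 2.31%, T in 1.13%, G in 0.124% and C in 0.0710%. Such tags were most frequent in miR-411-3p (36.6%, mostly T) and miR-667-3p (32.4%). They made up 14.8% in miR-134-5p, with 382 reads of T and 162 of A, 13.7% in miR-379-5p, with 454 reads of A, and 0.876% in miR-323-3p.

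In the SC1 list the cluster was represented by reads of 15 to 17 nt at the starts of a few arms. Such tags, beginning within 2 nt of an arm's start, gave 9083 reads, 17.2% (16.9 to 17.6) of the 52697 short reads of all miRNAs. Of the 9083, miR-382-5p gave 4367 and miR-409-3p 3949, together 91.6% (91.0 to 92.1). Without these arms the cluster share was 1.73% (1.61 to 1.85), so the cluster figure rests on them. Without miR-293-3p, the miRNA with most short reads in the list, it was 34.8%.

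The next arms were far behind. miR-411-5p had 418 short reads, miR-323-3p 176, miR-543-3p 59 and miR-376a-3p 30. A further 19 arms had 1 to 19 reads each, 84 in all, and 29 arms had 0, which allows up to 0.0330% of the cluster's short reads for each. Reads at 15, 16 and 17 nt were 18.3%, 53.1% and 28.6% of the cluster's short reads, and 37.2%, 37.4% and 25.4% of those of other miRNAs. Without miR-293-3p the share of the others at 17 nt was 33.9% (33.2 to 34.6), above that of the cluster. The cluster's shares rest mostly on miR-382-5p and miR-409-3p.

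The leading SC1 tags of these arms, with the seed in capitals, match the first bases of the arms exactly, and they are shown because they carry the result. Where these short RNAs came from was not tested.
miR-382-5p, 16 nt: gAAGTTGTtcgtggtg
miR-382-5p, 15 nt: gAAGTTGTtcgtggt
miR-382-5p, 17 nt: gAAGTTGTtcgtggtgg
miR-409-3p, 17 nt: gAATGTTGctcggtgaa
miR-409-3p, 16 nt: gAATGTTGctcggtga
miR-409-3p, 16 nt, 1 nt later: aATGTTGCtcggtgaa
miR-411-5p, 17 nt, 1 nt earlier: aTAGTAGAccgtatagc
miR-323-3p, 17 nt: cACATTACacggtcgac
In the order shown they had 2861, 708, 546, 1481, 910, 755, 136 and 125 reads. Whether such short tags come from another transcript was checked for the 23 member tags with 10 reads or more, which held 8967 reads. An exact match to a transcript of another gene was found for 1 tag of 15 nt with 19 reads (0.212%), in AC125456.1, beside 2 of the reversed tags.

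The starts of the short SC1 reads can also be given for each arm. For miR-382-5p 94.2% of the short reads and 94.6% of the DMSO reads were at the main start. For miR-409-3p the short reads were at the main start in 61.0% and 1 nt later in 35.5%, and for miR-411-5p at the main start in 44.3% and 1 nt earlier in 55.5%. For miR-543-3p and miR-376a-3p all short reads were at the main start.

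Reads of 18 nt in the DMSO list can be set beside the short SC1 reads of the same arms. Among the 23 arms with 500 DMSO reads or more, the 18 nt share was highest in miR-376a-3p (14.3%, 13.5 to 15.2), miR-411-5p (7.27%), miR-409-3p (5.96%), miR-323-3p (4.10%), miR-382-5p (3.94%) and miR-543-3p (0.469%, 0.347 to 0.620). These 6 were the 6 arms with most SC1 short reads, in another order. The share of miR-543-3p overlaps within counting error that of the next arm, miR-485-3p (0.402%, 0.225 to 0.663), with 1 short SC1 read. The counting limits the match of the 6 arms and the correlation below, because a tag had to end within 4 nt of the main tag's end. This left out 18 nt tags at the main start of arms with a main tag of 23 nt or more. Among these arms were miR-485-5p, miR-485-3p, miR-494-3p, miR-412-5p and miR-541-5p. Tags of 18 nt starting 1 nt earlier were also left out of arms with a main tag of 22 nt, among them miR-409-3p and miR-543-3p. Exact reads of 18 to 26 nt on the 3p side were 4401 for Mir485 and 3734 for Mir409, beside 3728 and 3190 counted. With any exact hairpin match 18 nt held 3.14% of the cluster reads, beside 2.66%. Below 500 DMSO reads the picture was mixed: miR-377-5p had 3.64% and miR-758-5p 1.63% at 18 nt and 0 short SC1 reads. Over the 45 arms with 100 DMSO reads or more, Spearman's rho of SC1 short reads was 0.53 with DMSO reads of 18 nt and 0.41 with DMSO reads of 21 to 23 nt. The points are arms of 1 cluster in 1 library of each condition, and both counts grow with the abundance of an arm.

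Some arms with many DMSO reads had no short SC1 reads. miR-485-5p with 6821 DMSO reads, miR-382-3p with 5990, miR-134-5p with 3148 and miR-494-3p with 2859 had 0 short SC1 reads, as had miR-154-3p, miR-412-5p and miR-369-3p. miR-541-5p had 2. The arms without short reads held 24825 DMSO reads in all. The arms of Mir382 were opposite, with 4367 short reads for the 5p and 0 for the 3p arm. Hairpins inside the annotated Mirg gene gave 91.7% of the short reads and 43.8% of the DMSO reads, since both leading arms lie there. Mir409 is at chr12:109743158-109743236, in an intron of Mirg.

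**Figure D5:**
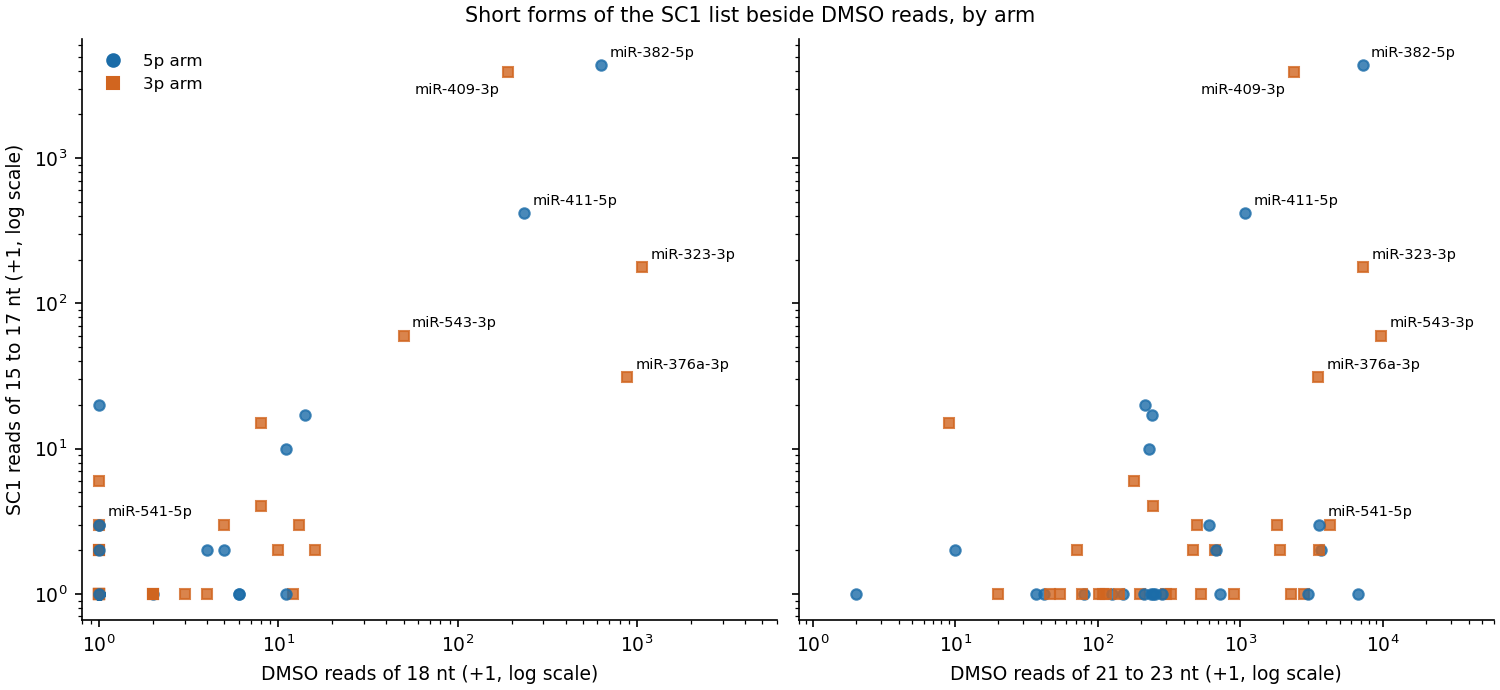
SC1 reads of 15 to 17 nt by arm (reads + 1, log scale) against DMSO reads of 18 nt (left) and of 21 to 23 nt (right), for the 54 cluster arms, with 5p arms as circles and 3p arms as squares. miR-382-5p and miR-409-3p stand at the top with 4367 and 3949 short reads, and many arms with over 1000 DMSO reads of 21 to 23 nt lie on or near the bottom line of 0 reads. In the left panel 18 nt tags at the main start were not counted for arms with a main tag of 23 nt or more. Those starting 1 nt earlier were not counted for arms with a main tag of 22 nt.

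The 19 other miRNA genes of the Dlk1-Dio3 region, upstream of this cluster, are known to be processed from the same imprinted stretch. They held 2.29% of the DMSO mature reads over 23 arms, less than the 5.51% of the cluster over 54 arms, and were led by miR-433-3p at 8612 RPM. Of their reads 92.3% were of 21 to 23 nt, beside 62.0% in the cluster and 71.6% in the cluster without miR-323-3p. At 18 nt they had 2.56%, beside 2.66%. They had 975 short reads in the SC1 list, beside 9083 of the cluster and 767 without its leading pair of arms.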

How the data were processed

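Small RNA libraries of J1 cells, 1 for each condition, were analysed from the deposited lists of distinct tags with raw read counts, as made by the authors. The submitters' processing notes name the build mm9. The sources used here do not give the adapter, trimming, length filter or aligner. The last line of the DMSO list, a total, was left out. Coordinates are those of GRCm38 from GENCODE M21, not mm9.

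Tags were matched exactly and in sense to the hairpins. On each side of the hairpin midpoint, the DMSO tag of 18 to 26 nt with most reads defined an arm if it had 10 reads or more, so what was counted depends on the DMSO list. A tag was assigned if it started within 2 nt and ended within 4 nt of that tag, and tags of several names were shared out equally between them. SC1 tags of 15 to 17 nt were counted if they started within 2 nt of an arm's start.

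Every hairpin is named, and full values go to the 12 most abundant arms, hairpins with 1000 reads or more on both arms, the 5 most even hairpins with 100 reads or more, the 6 arms with most short SC1 reads and the 6 arms with 500 reads or more that have the highest 18 nt share. Other arms were named after their values were seen. The members, lists and this rule were chosen with earlier results of these data known. On simulated tags of the same arms 50 of 54 member levels (92.6%) came within 10% of the level drawn, and 412 of 483 levels over all mature names (85.3%). Every arm was drawn with the same spread of ends, and tags were cut at the hairpin end. The simulation therefore cannot show reads lost from arms with wider ends or from tags that run past the hairpin. The alternatives are given in the closing section. The tools were matplotlib 3.10.9, scipy 1.17.1 and numpy 2.4.6 under Python 3.11.15.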

Additional observations from a re-analysis of the deposited data

How the results depend on the processing

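No paired analysis was possible because only 1 library stood for a condition, and no ratio between conditions was formed. The cluster's share of mature reads (5.51%) was 5.59% with shared tags left out, 4.6002% with the most abundant tag alone, 5.57% with any exact hairpin match, 4.52% with tags of 20 to 24 nt, 5.30% with 3′ A or T removed, and 0.633% scaled to all reads. The share of the 3 leading arms (43.9%) was 39.9%, 43.2%, 36.8% and 42.5% with the most abundant tag, any match, 20 to 24 nt and 3′ A or T removed. With any match, 61.8% of reads were of 21 to 23 nt and 3.14% of 18 nt. With tags of at least 10 reads the main start held 91.6%. The SC1 short share (17.2%) was 14.2% with starts equal to the main start, 18.5% with shared tags left out and 19.01% at 17 nt only.

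Chosen after seeing the data were RefSeq ends, which gave 5.68%, 47.6%, 59.2%, 2.89% and 85.8% for the cluster share, the 3 leading arms, 21 to 23 nt, 18 nt and the main start. Without miR-323-3p the cluster share was 4.36%, 21 to 23 nt held 71.6%, 18 nt 2.25% and the main start 92.3%. The SC1 share was 1.73% without miR-382-5p and miR-409-3p, and 34.8% without miR-293-3p. The number of hairpins with more 5p reads was 12 with RefSeq ends and 13 as reported and in the planned settings, and it was not recomputed without single arms. Of 94 recomputed levels of single arms 49 moved beyond counting error. Among the 49 were 11 with RefSeq ends, where most arms rose by the same 1.118 times. In that setting fewer mature reads were assigned in all (1938481 beside 2167129). By more than 1.5 times, 4 of 12 moved with the most abundant tag only and 3 of 12 with 20 to 24 nt, where miR-323-3p fell from 12002.5 to 5397 RPM. An 18 nt floor in one list and a 17 nt ceiling in the other mean that no arm's whole length range was seen in either library.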

Other observations

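Among reads that differed from a hairpin by 1 base, which were searched after seeing the data, the most frequent change by share was A6G in miR-376b-3p, counted from 1 at the 5′ end of the main tag. It was found in 14 of 533 reads (2.63%, 1.44 to 4.37). The miR-376 precursors are known substrates of A-to-I editing, and position 6 lies in the seed. The same change was found in 4 of 316 reads of miR-376c-3p (1.27%, 0.346 to 3.21) and in 1 of 6101 reads of miR-376a-3p (0.0164%). It was picked as the highest of 31 changes with 5 reads or more, and sequencing error was not tested. Over all arms A-to-G changes were not the most frequent kind, with 78 reads beside 157 of C-to-T and 120 of G-to-T. The next change by share was C13G in miR-485-3p, with 16 of 2121 reads (0.754%).

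The main tags of miR-495-3p and miR-668-3p ended at the last base of the annotated hairpin. For miR-495-3p a further 1077 reads held the hairpin's last bases and ran past its end, beside 4321 counted reads, and these are not in its level or its lengths above. For miR-668-3p there were 169 such reads beside 152 counted ones. Whether the added bases follow the genome was not analysed here.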
